A study of Rattus norvegicus with 5 samples.

Results

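The genes described here carry zinc finger protein names. They were taken from the gene names on the array by the start Zfp or Znf followed by a digit, whether or not the name was marked as predicted, and Zfp36, Zfp36l1 and Zfp36l2 were left out. The rule found 149 gene names, 124 that begin with Zfp and 25 that begin with Znf, of 35658 gene names on the array. Those 35658 hold sequence and probe identifiers as well as gene symbols, here and wherever all gene names are given. They were measured by 199 probes of 60 bases, and 42 of the genes had 2 or more probes. Fao cells, a rat hepatoma line, were grown for 2 days in medium with 10% serum and then starved for 16 h in 10 nM of the synthetic glucocorticoid dexamethasone, so that every sample, the 0 min control included, had been starved with dexamethasone. Insulin at 10 nM was then given for 0, 15, 30, 45 or 60 min, and the total RNA of each time went to 1 Agilent array read in 1 colour. No time has a replicate, a single tumour-derived line stands for the hepatocyte, and a time course without insulin was not analysed here.

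A classical zinc finger is a short fold held by a zinc ion between a pair of cysteines and a pair of histidines, and rows of such fingers read a DNA sequence, or in some proteins RNA. The largest class joins its fingers to a Krüppel-associated box (KRAB), which recruits the corepressor Trim28 and through it the machinery of heterochromatin. Other members carry a BTB or SCAN domain for pairing with other proteins, and a few named for their fingers work outside transcription, on ribosomes, RNA or ubiquitin. A current RefSeq name could be given to 144 of the 149 gene names. Of these 112 are still called Zfp or Znf, 9 are BTB-domain genes (Zbtb or Patz1), 8 are SCAN-domain genes (Zscan or Zkscan), 5 are ubiquitin ligase genes (Rnf or Ltn1), and 10 have other names, such as Arfgap2, which acts on the Golgi (Zfp289 on the array), and Zfand5 (Zfp216).

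Across the arrays 50.87% to 56.45% of the 43379 non-control spots were well above background, none was saturated, and no outlier spot hit a zinc finger probe. A level is the processed signal divided by its array's 75th percentile, in log2. That percentile was 253.6 to 299.9 units at 0 to 45 min and 480.3 at 60 min, and a level of 0 equals it. Probes printed many times on the array varied by a median standard deviation (SD) of 0.121 to 0.139 log2 units between their spots, which gives a change between 2 arrays a technical SD of 0.184 to 0.196. These figures come from spots within an array. They say nothing of differences between arrays in labelling, hybridization, slide or scan, nor of the spread between cultures. They also come from probes well above background, so dim genes may vary more. The 60 min array lay on slide 2 with a scan of its own and the others on slide 1, and slide and time cannot be told apart at 60 min. As the RNA is from bulk cultures, a lower level in every cell and a loss from some cells cannot be told apart. All 8 hepatocyte markers were well above background on all 5 arrays, against 5 of 15 markers of macrophages, endothelial, stellate and biliary cells (Cd68, Cdh5, Col1a1, Krt19 and Sox9), and 7 of those 15, Pecam1 and Epcam among them, were on no array. The summed log2 level was 9.71 to 9.87 for the hepatocyte list over the 5 arrays and 1.30 to 1.49 for the other 4 lists together, and its part in the results was not tested.

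Most zinc finger genes gave a signal in these cells at every time. Well above background on all 5 arrays were 100 of 149 gene names (67.1%), compared with 46.8% of all gene names, while 39 were on none and 10 on 1 to 4 arrays. The 46.8% also covers sequence and probe identifiers, so the shares come from unlike sets, and a share over gene symbols alone is not given here. The count per array was 102 to 109. Among those on none were Zfp423 and Zfp521, a related pair of factors of fat cell and blood cell commitment, Zfp37, and the KRAB gene Zfp354c, whereas its neighbour Zfp354a was on all 5. Of the 39, Zfp278, Znf532, Zfp365 and Znf382 were also listed by role below. A gene that is not well above background has only an upper bound on its level here.

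The probes of the members lie on 21 chromosomes of rn4, the rat assembly on which the array was annotated. Chromosome 1 holds 36 of them (24.2%, compared with 11.9% of all gene names), chromosome 10 holds 17 and chromosome 17 holds 9. Runs of 3 or more members within 1 Mb of the next numbered 9 and took in 42 members. The largest, on chromosome 1 from 72589753 to 72955451, held 7 genes, of which Zfp110, Zfp499, Zfp446 and Znf324 were on all arrays and Zfp606, Zfp329 and Zfp98 on none. Whether a probe lies in a coding exon or another region of its transcript was not determined here.

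As a group the zinc finger genes stayed close to their 0 min levels, and the few that differed from them by 2-fold did so at 30 min or later. At 15 min 0 of 101 members measured on both arrays were 2-fold higher (0.11% of all gene names) and 0 were 2-fold lower (0.278%). At 30 min 1 of 102 was 2-fold higher (0.233% of all) and 0 were lower (0.21%). At 45 min 0 of 102 were 2-fold higher (0.325%) and 2 were lower (0.279%). At 60 min 0 of 104 were 2-fold higher (0.634%) and 2 were lower (0.701%). These counts of 0 to 2 are too small to set the members apart from all gene names, and 1 array per time allows no test at a single time.

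The genes behind these counts were Zfp426 at 30 min, Znf507 and Zfp99 at 45 min, and Znf507 and Zfp597 at 60 min. Each was dim, with processed signals between 10.9 and 93.2 units on any array, and each had a single probe. The median log2 change over members was 0.03, 0.05, 0.06 and 0.04 at 15, 30, 45 and 60 min, and over all gene names it was 0.03, 0.02, 0.02 and 0.02. Medians this near to 0 have no firm sign, and that of the members at 60 min was −0.04 with the normexp background. Above their 0 min level were 59 of 101, 62 of 102, 66 of 102 and 55 of 104 members (58.4%, 60.8%, 64.7% and 52.9%), and of all gene names 57.9%, 55.0%, 54.8% and 51.9%.

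**Figure D1:**
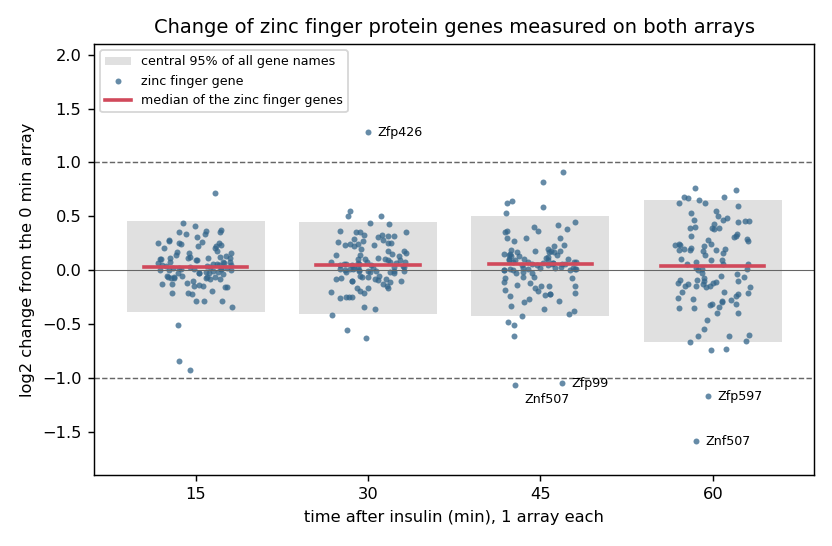
Log2 change from the 0 min array (vertical axis) of each zinc finger gene well above background on both arrays, at 15, 30, 45 and 60 min after insulin (horizontal axis, 1 array each). Points are genes, red bars their medians (0.03, 0.05, 0.06 and 0.04), grey boxes the range that holds the central 95% of all gene names, and dashed lines a 2-fold change, passed by Zfp426 at 30 min, Znf507 and Zfp99 at 45 min, and Znf507 and Zfp597 at 60 min.

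The spread of the members widened with time. The SD of their log2 changes was 0.229, 0.247, 0.306 and 0.414 at 15, 30, 45 and 60 min, and that of all gene names 0.227, 0.237, 0.251 and 0.343. Outside the central 95% of all gene names lay 4.0%, 6.9%, 11.8% and 10.6% of the members, where 5.0% of all gene names lie by construction. At 45 min 6 members lay above that range and 6 below it, and at 60 min 6 above and 5 below. The plot of changes by time shows the members leaving the grey boxes on both sides.

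That spread differed with brightness. Among the 21 members on all arrays with a mean log2 level under −2, the SD of the change was 0.30, 0.42, 0.50 and 0.50 at the 4 times, compared with 0.28, 0.30, 0.31 and 0.39 over the 3814 gene names of that range. Among the 21 members with a mean level of 2 or more it was 0.12, 0.20, 0.21 and 0.29, compared with 0.16, 0.18, 0.18 and 0.27 over 4918 gene names. In this bright class the largest change was that of Zfp191 at 60 min, 1.60-fold. Between the extremes, the 30 members at 0 to 2 had SDs of 0.18, 0.18, 0.21 and 0.39. Over the 3837 gene names of that range they were 0.19, 0.20, 0.22 and 0.31. The 28 members at −2 to 0 had SDs of 0.22, 0.16, 0.25 and 0.39. Over the 4125 gene names of that range they were 0.24, 0.23, 0.26 and 0.35. In both middle classes the members thus spread less than all gene names at 15, 30 and 45 min, and more at 60 min.

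Over the 100 members on all arrays, the highest and the lowest of the 5 levels of a gene differed by a median of 0.44 log2 units, and over all such gene names by 0.36. A range of at least 1 was seen in 5 members, Zfp426, Zfp482, Zfp99, Znf507 and Znf575 (5.0%, compared with 2.6% of all). Zfp688 had the narrowest range, 0.03. The 60 min array held the highest level of 38 members and the lowest of 35, 73 of 100 in all, compared with 68.7% of all gene names, so the concentration of extremes on that array was shared with the rest of the transcriptome.

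Znf507, a zinc finger gene of little-known function now named Zfp507, had the lowest change at all 4 times among members well above background on both arrays. Its log2 level was −1.69 at 0 min and −2.61, −2.32, −2.75 and −3.28 at 15, 30, 45 and 60 min. All 4 insulin arrays were thus below the 0 min array. The highest level fell at 0 min in 11 of the 100 members on all arrays and in 12.4% of all such gene names. Znf507 lay below its 0 min level by 1.90-fold (15 min), 1.55-fold (30 min), 2.09-fold (45 min) and 3.01-fold (60 min). Since every one of these values is set against the single 0 min array, that array decides them. Against the 15 min array instead, the log2 change was 0.29 at 30 min, −0.14 at 45 min and −0.67 at 60 min. Normexp, another model of the background with an offset of 50 units, moved the values too. That offset is of the size of these dim signals, so folds of dim genes shrink by construction, here and below. The log2 change at 15 min was 0.47 with normexp on all spots, which turns its direction. It was −0.38 with normexp refitted without the 5 spots, over all arrays, that lay far below their local background. With either fit it was −0.23, −0.46 and −1.11 at 30, 45 and 60 min, so that only the 60 min value stayed past 2-fold. The probe lies on chromosome 1, 88333972 to 88334031, minus strand, of rn4.

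Zfp597 was on the 0, 15 and 60 min arrays. Its log2 level was −2.85 at 0 min, −3.69 at 15 min and −4.02 at 60 min, and at 30 and 45 min, where it was not well above background, it read −4.33 and −4.55. The 0 min array was again the highest of the 5. The decrease was 1.78-fold by 15 min and 2.25-fold by 60 min, and at 30 and 45 min the dim readings lay 2.79-fold and 3.25-fold below 0 min. Such a value, called a bound here, takes for the dim array its own signal, or the array's lowest accepted one where that is higher. It carries the noise of a dim spot, and the true change can be smaller. Against the 15 min array the change at 60 min was −0.34. With normexp on all spots the 15 min change turned to 0.93, and with the refit it was −0.24, while the 60 min change was −0.75 with either, short of 2-fold. The probe lies on chromosome 10, 11926184 to 11926243, plus strand.

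Zfp99, now named Zfp394, encodes a SCAN and KRAB protein, and its human counterpart is known as a repressor in MAP kinase signalling. Its log2 level was −2.15, −1.92, −2.34, −3.20 and −2.88 at 0, 15, 30, 45 and 60 min. The first 3 arrays were the high ones, and the 45 and 60 min arrays lay below all of them. The decrease was 2.07-fold by 45 min and 1.67-fold by 60 min, while the changes at 15 and 30 min were 0.22 and −0.20 in log2. Against the 15 min array the change at 60 min was −0.96. With either normexp fit, whose offset shrinks such folds, the 45 min change was −0.38, short of 2-fold, and the 60 min change was −0.64. The probe lies on chromosome 12, 9730016 to 9730075, plus strand, in a run of 4 members with Znf498, Zfp655 and Zfp95, and the other three were all above their 0 min level at 45 min.

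Zfp426, a KRAB gene, had a course of a different shape. Its log2 level was −3.58, −3.41, −2.30, −3.49 and −3.28 at 0, 15, 30, 45 and 60 min, and the processed signal 25, 25, 51.3, 22.8 and 49.6 units. Only the 30 min array stood apart, 2.43-fold above 0 min, and the other 3 changes were 0.17, 0.10 and 0.31. With either normexp fit the 30 min change was 0.55, short of 2-fold. Its probe lies on chromosome 8, 19474420 to 19474479, minus strand. Zfp13 was well above background at 30 min alone, at a signal of 21.5 units. Scaled, that is 3.60-fold above the lowest accepted signal of the 0 min array, which stood in for its dim reading. At 0 min Zfp319 read 17.7 units and was not well above background either, so the true difference of Zfp13 can be far smaller. A peak on 1 array of a dim single-probe gene has no second measurement in these data.

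For the genes that passed 2-fold, the 250 bases before the start of the gene are shown, since the data bear on their transcripts and a reader may want to see what lies upstream. They come from RefSeq on GRCr8, a later assembly than that of the probes, and Zfp394 is named only. Letters are 5′ to 3′ on the strand of the gene, and capitals mark matches on either strand to the motifs searched, which were the CRE (TGACGTCA), AP-1 (TGACTCA), FoxO (GTAAACA), E-box (CACGTG), EGR (GCGTGGGCG), CCAAT and GC box (GGGCGGG) motifs and the TATA box motif (TATAAA). The EGR and GC box motifs share letters and can overlap.
Zfp426, chr8:27305058-27305307, minus strand: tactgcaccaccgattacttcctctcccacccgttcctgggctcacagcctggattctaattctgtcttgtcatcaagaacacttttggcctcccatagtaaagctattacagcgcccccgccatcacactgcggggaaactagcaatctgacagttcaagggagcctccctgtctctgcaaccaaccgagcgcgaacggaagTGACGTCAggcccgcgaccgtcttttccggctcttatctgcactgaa
Zfp597, chr10:12159283-12159532, plus strand: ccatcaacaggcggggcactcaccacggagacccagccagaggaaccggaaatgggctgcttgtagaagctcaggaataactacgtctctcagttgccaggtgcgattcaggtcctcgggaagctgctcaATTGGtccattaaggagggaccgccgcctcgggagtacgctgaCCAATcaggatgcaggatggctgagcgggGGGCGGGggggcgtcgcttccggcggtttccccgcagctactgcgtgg
Znf507, chr1:97605406-97605655, minus strand: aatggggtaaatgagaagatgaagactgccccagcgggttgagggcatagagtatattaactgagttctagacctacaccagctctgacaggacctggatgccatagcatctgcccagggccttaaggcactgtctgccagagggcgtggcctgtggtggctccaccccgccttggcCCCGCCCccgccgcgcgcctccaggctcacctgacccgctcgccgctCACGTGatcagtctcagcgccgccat

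In the first sequence the capitals are a CRE that begins 47 bases before the start of the gene. In the second they are CCAAT motifs at −120, on the other strand, and at −77 and a GC box at −48. In the third they are a GC box at −73, on the other strand, and an E-box at −26. A match is a description of letters and not a bound site. Over the 33469 promoter windows of the table, a CRE was found in 1.6%, and over the 129 windows matched to members in 2.3% (3 windows). The GC box was found in 36.4% of member windows and in 21.0% of all, CCAAT in 36.4% and 34.0%, the E-box in 8.5% and 5.6%, AP-1 in 2.3% and 4.0%, FoxO in 0.8% and 3.2%, EGR in 0% and 0.5%, and TATA in 7.0% and 12.9%. Member windows had a median GC content of 58.0%, compared with 51.2% over all windows, which moves with the share of GC boxes, and its part was not tested.

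The trend over time was the comparison that could be tested. A slope on time was fitted with limma over the 5 arrays for 20498 gene names on at least 1 array, among them 110 members. With Benjamini-Hochberg adjustment over all of them, 0 members had an adjusted p under 0.05 (0% of all gene names), and the smallest adjusted p of a member was 0.491. At an unadjusted p under 0.05 stood 18 of 110 members (16.4%), compared with 8.59% of all gene names. Of these, 13 slopes were above 0 (Zfp184, Zfp191, Zfp216, Zfp295, Zfp330, Zfp354a, Zfp54, Zfp57, Zfp612, Zfp629, Zfp644, Zfp655 and Zfp95) and 5 below 0 (Zfp597, Zfp691, Zfp710, Zfp99 and Znf507). Zfp629 was well above background on the 60 min array alone and entered the fit only through the array where it is high, so its slope is no evidence of a change. Zfp597 entered through 3 arrays, and the others through all 5. The number of members at an unadjusted p under 0.05 was 13 without the 60 min array, which alone lay on slide 2. The share over all gene names in that fit is not given here. The 5 arrays are not said to come from separate cultures, so these p-values measure only the scatter of single arrays about a line. No member's slope can be called on these 5 arrays, and the courses below are descriptions.

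Zfp295, now Zbtb21, a BTB-domain factor, had log2 levels of 0.89, 0.95, 1.15, 1.42 and 1.65 at 0, 15, 30, 45 and 60 min, higher on each later array. Its slope was 0.79 ± 0.13 per hour (SE) and the limma adjusted p 0.491. At 60 min it was 1.69-fold above 0 min, the highest member of that time. Its other two probes changed by 0.40 and 0.80 at 60 min, in the same direction, while at 30 min they read −0.18 and 0.08 where the brightest probe read 0.26. Its brightest probe lies on chromosome 11, 37959347 to 37959406, minus strand.

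Zfp191, now Zfp24, a SCAN-domain factor known for its need in myelination, was among the bright members. Its log2 level was 2.33, 2.30, 2.57, 2.92 and 3.01 at the 5 times, level at 15 min and higher at the last 2 times than at any earlier one. By 45 min it stood 1.51-fold and by 60 min 1.60-fold above 0 min, with a slope of 0.79 ± 0.16 per hour (SE) and a limma adjusted p of 0.491. The probe lies on chromosome 18, 15783442 to 15783501, minus strand.

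Zfp57, the KRAB factor that keeps methylation at imprinted genes through Trim28, had log2 levels of −0.07, 0.01, 0.43, 0.29 and 0.67. The arrays of 30, 45 and 60 min lay above those of 0 and 15 min. Above 0 min it lay 1.41-fold (30 min), 1.29-fold (45 min) and 1.67-fold (60 min), with a limma adjusted p of 0.494 for the trend. Zfp184, a KRAB gene, read −3.58, −3.47, −3.03, −2.76 and −2.96, and was 1.77-fold higher at 45 min, a log2 change of 0.82 that was 0.38 with either normexp fit. Its probe is the first of a run of 6 members on chromosome 17, 50222241 to 50893057, in which the 4 on all arrays (Zfp184, Znf187, Zfp307 and Zfp96) were above their 0 min level by their brightest probes at 15, 30 and 45 min, by 0.07 to 0.82, and 2 of 4 were at 60 min. The second probe of Zfp307 read −0.16 at 15 min and that of Zfp96 −0.01 at 45 min.

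**Figure D2:**
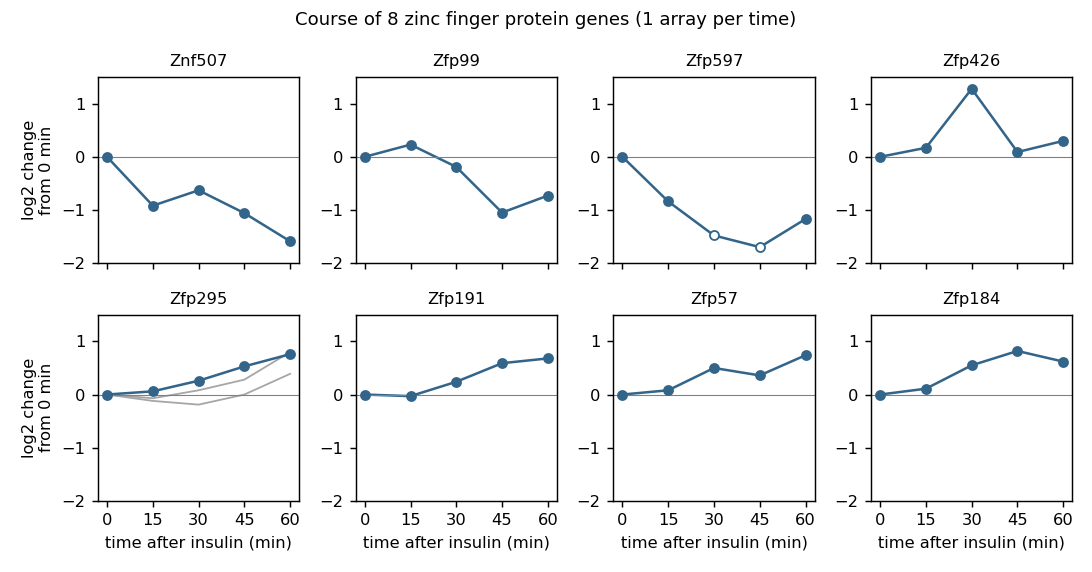
Log2 change from the 0 min array (vertical axis) against time after insulin in min (horizontal axis) for 8 zinc finger genes, 1 array per time. Blue lines follow the brightest probe, grey lines the other probes of Zfp295, and open circles mark arrays on which Zfp597 was not well above background. Znf507 is below 0 on all 4 insulin arrays, Zfp426 is high at 30 min only, and Zfp295 is higher on each later array.

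Changes that went one way at every time were few. Further from 0 than the technical SD at all 4 times, in 1 direction, were 4 members that were higher (Zfp105, Zfp346, Zfp54 and Zfp644) and 1 that was lower (Znf507), of 100. These are 4.0% and 1.0%, compared with 2.6% and 1.6% of the 16694 gene names on all arrays. Since all 4 changes share the 0 min array, they are not independent. Zfp644 read −3.30, −2.93, −3.07, −2.66 and −2.74, with 0 min the lowest of its 5 arrays. Zfp105 read 1.25, 1.57, 1.53, 1.45 and 1.75, again lowest at 0 min.

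Second probes did not bear out all of these. Of the 31 members with 2 or more probes measured, the probes of a gene differed in their log2 change by a median of 0.17, 0.22, 0.14 and 0.25 at 15, 30, 45 and 60 min. The count with a difference of at least 0.5 was 1, 1, 2 and 5. Zfp346, which encodes a nucleolar protein that binds double-stranded RNA, stood 1.88-fold above 0 min by 45 min on its brightest probe, whereas its second probe read −0.05, 0.13, 0.01 and −0.62 at the 4 times against 0.34, 0.43, 0.91 and 0.32. The 45 min change was 0.46 as the mean over probes. Those 2 probes lie on chromosome 17 at 15573948 to 15574007 and, in a stretch split over 15547241 to 15549065, further down the minus strand. Which of them follows the main transcript was not tested.

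The second probe of Zfp105 read −0.19 at 60 min against 0.50, and that of Zfp54 −0.06 against 0.60, while both were above 0 at the 3 earlier times. Zfp482, now Zbtb6, stood 1.65-fold above 0 min at 15 min and 1.53-fold below it by 60 min on its brightest probe. Its second probe read 0.12, −0.24, −0.41 and −0.52, so the 15 min increase rests on 1 probe and both were below 0 at 60 min. In contrast, both probes of Zfp612 were above 0 at 30, 45 and 60 min (0.28, 0.62 and 0.47, and 0.44, 0.74 and 0.50). The probes of Zfp330, a nucleolar protein, gave 0.09, 0.23, 0.45 and 0.34, and 0.04, 0.15, 0.42 and 0.61.

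**Figure D3:**
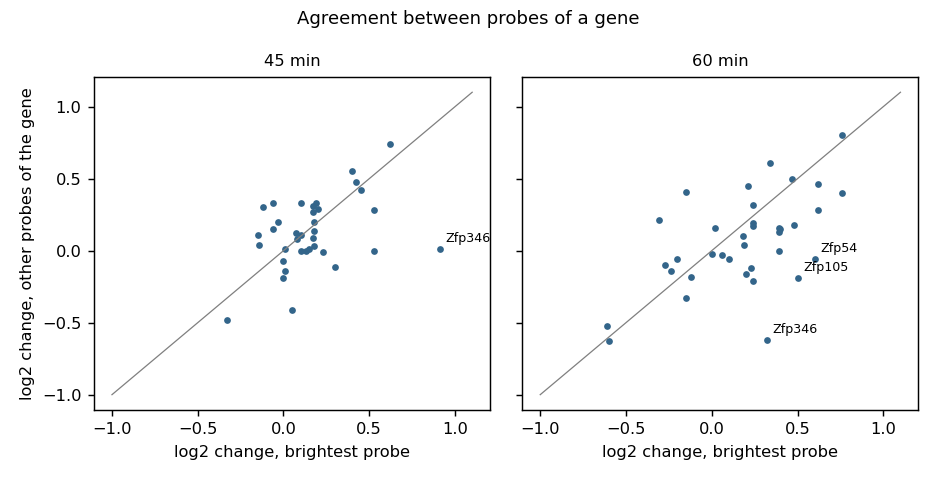
Log2 change from 0 min of the other probes of a gene (vertical axis) against that of its brightest probe (horizontal axis) at 45 and 60 min, for the members with 2 or more probes well above background on both arrays. Points on the grey line agree, and the named genes differ by at least 0.6, among them Zfp346, whose second probe read 0.01 at 45 min and −0.62 at 60 min.

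By role, factors listed as promoter-binding had a median below 0 at 60 min. So did zinc finger genes outside the members that are called Zdhhc, Zfyve, Zmym, Zcchc or Zfand (−0.14, 13 of 30 above 0). Factors of ribosomes or RNA had a median above 0, which was not particular to them. The 60 min median was 0.26 for KRAB or signal-linked factors and 0.19 for differentiation factors (4 of 4 above 0). Promoter-binding factors numbered 16 on the array, of which 13 were measured at every time. Their median log2 change was −0.05, 0.01, 0.00 and −0.22 at 15, 30, 45 and 60 min, and 2 of 13 were above 0 at 60 min, where 51.9% of all gene names were. The RNA and ribosome factors, 7 of 7 measured, had medians of 0.07, −0.02, 0.06 and 0.23, and 7 of 7 were above 0 at 60 min. With the mean over probes 6 of these 7 were above 0, and against the 15 min array 5 of 7. The signs of both 60 min medians held under every alternative processing tried, with values of −0.24 to −0.17 and 0.21 to 0.24. At the earlier times the sign of the medians changed with the processing for some, and with normexp on all spots the RNA and ribosome factors had a median of −0.57 at 15 min, with 2 of 7 above 0, where the refit gave 0.03. With that setting the promoter-binding factors had 0.01 at 15 min, a wider split in the other direction. In the values as reported, a split of this size appears on the 60 min array alone. That array lay on the other slide, so slide and time cannot be told apart for it.

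Zfp148, which binds GC-rich promoters, had log2 levels of 2.58, 2.69, 2.63, 2.64 and 2.03, with the 60 min array below the other 4. It was the lowest of its list at 60 min, at −0.55. Its close relative Zfp281 read 1.39, 1.80, 1.63, 1.53 and 1.27, high at 15 min (0.41, but −0.07 with normexp on all spots and 0.35 with the refit) and at −0.12 at 60 min. Zfp161, now Zbtb14, a repressor of Myc, changed by 0.37, 0.00, 0.05 and −0.40. Zfp143, which acts at promoters of protein-coding and small nuclear RNA genes, changed by 0.24, 0.35, −0.30 and −0.35, above 0 at the first 2 times and below at the last 2.

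Zfp263 was below 0 at all 4 times (−0.51, −0.36, −0.61 and −0.13). With normexp on all spots its 15 min change turned to 0.71, with the refit it was −0.18, and with either the 30 and 45 min changes were −0.16 and −0.22. Zfp335 changed by −0.05, 0.03, −0.15 and −0.28, and Znf292, a large factor that binds the growth hormone promoter, by −0.07, −0.17, −0.38 and −0.09. The 2 members above 0 at 60 min were Zfp384, a factor of matrix gene promoters, at 0.39, and Zfp219 at 0.32. The second probe of Zfp384 read 0.00 at 60 min. Zfp217 and Zfp395 were on 2 and 1 arrays, and Zfp278 on none.

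Among the ribosome and RNA factors, Zfp598, the ubiquitin ligase that senses collided ribosomes, had log2 levels of 3.48, 3.55, 3.39, 3.54 and 3.76, and the 60 min array was the highest. Zfp207, a spindle and Bub3-binding protein whose place in this list is a loose one, read 4.02, 4.0, 3.89, 3.84 and 4.25, also highest at 60 min. Zfp622, an assembly factor of the large ribosomal subunit, changed by −0.19, −0.02, 0.15 and 0.22. Znf593, a factor of the same subunit, changed by 0.19 at 60 min, and Zfp294 (Ltn1), the ligase that clears peptides from stalled ribosomes, by 0.10. Zfp330 and Zfp346 were at 0.34 and 0.32. The second probe of Zfp346 opposed this with −0.62, and that of Zfp294 read −0.06. By their brightest probes all 7 lay between 0.10 and 0.34, where the technical SD of a change at 60 min is 0.184, and Zfp294 lay within that SD of 0. That SD leaves out differences between slides.

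**Figure D4:**
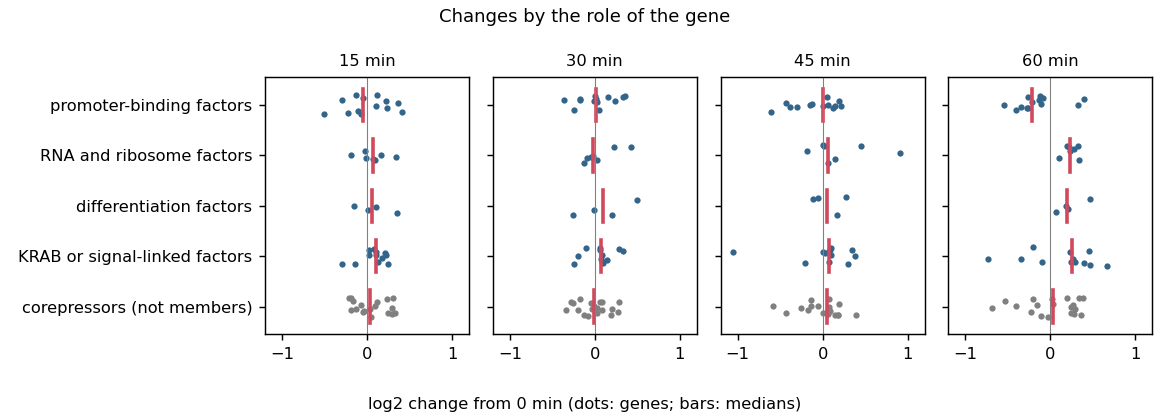
Log2 change from 0 min (horizontal axis) of single genes (points) in 4 role lists of zinc finger genes and in the corepressor list of genes that are not members, at 15, 30, 45 and 60 min, with the median of each list as a red bar. At 60 min the promoter-binding factors have a median of −0.22 and the RNA and ribosome factors 0.23. The KRAB or signal-linked factors have 0.26, the differentiation factors 0.19 and the corepressors 0.03.

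KRAB genes and genes linked to signals numbered 15 on the array and 12 at every time, with medians of 0.11, 0.08, 0.08 and 0.26. Their 60 min values ran from −0.74 for Zfp99 to 0.67 for Zfp354a. Zfp354a (Kid-1), a KRAB repressor first described in kidney, had log2 levels of 0.94, 0.65, 1.02, 1.32 and 1.61, lowest at 15 min and highest at 60 min, and a limma adjusted p of 0.512 for its trend. Zfp260, a factor known in the heart, changed by 0.02, 0.10, 0.01 and 0.23 (its second probe read −0.12 at 60 min), Zfp189 by 0.21, 0.14, 0.03 and 0.29, and Zfp91, a ubiquitin ligase of the noncanonical NF-κB pathway, by 0.02, −0.10, 0.10 and 0.24. Znf386 went from 0.25, 0.33 and 0.30 at 15, 30 and 45 min to −0.21 at 60 min. Zfp347 and Zfp95 were at 0.45 and 0.47 at 60 min, and Zfp180 at −0.35.

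Of the 8 factors of differentiation on the array, 4 were measured. Zfp238, now Zbtb18, a transcriptional repressor of brain and muscle development, read −3.66, −3.55, −3.16, −3.39 and −3.20, and was above its 0 min level at all 4 times. Zfp503 changed by 0.35, 0.20, 0.17 and 0.18, and Zfp592 by 0.06 at 60 min. Zfp422 changed by −0.15, −0.26, −0.06 and 0.21 on its brightest probe and by 0.25, 0.18, 0.33 and 0.45 on its second, opposite in sign at the first 3 times. Zfp423, Zfp521, Znf532 and Zfp365 were on no array.

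Further genes with a large change at 1 time belonged to no list. Zfp628 read 1.97, 2.20, 2.19, 2.05 and 1.25, with the 60 min array apart and 1.65-fold below 0 min. Zfp655 read −1.12, −1.07, −0.94, −1.04 and −0.44, again with the 60 min array apart, here 1.61-fold above. Znf575 read 4.10, 4.08, 3.54, 3.74 and 4.64, lowest at 30 min and highest at 60 min. Zfp628 and Zfp655 thus departed on the array of slide 2 alone.

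The remaining named members had smaller changes. Zfp2 was 0.44, 0.32, 0.17 and 0.39 above its 0 min level, and Zfp289 (Arfgap2) was at −0.34 at 15 min. Zfp509, now Zbtb49, was at −0.51 at 45 min, and Znf324 at −0.42 at 30 min. Zfp629 and Zfp192 were well above background at 60 min alone, with bounds of 0.53 and 0.44 above 0 min, and Zfp319 had a bound of −0.25.

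The proteins through which KRAB factors act were described beside them. Of 21 corepressor genes on the array 18 or 19 were measured at each time, with medians of 0.04, −0.01, 0.06 and 0.03. Trim28, the corepressor that KRAB domains bind, changed by −0.07, −0.04, 0.09 and 0.03. The extremes at 60 min were Dnmt1, the maintenance DNA methyltransferase, at −0.69 and Chd4, the remodeller of the NuRD complex, at 0.38. None of those measured at a time was 2-fold away at it. Genes of the BTB family that the array calls Zbtb, 12 or 13 of 20 measured, had medians of 0.22, −0.03, 0.07 and 0.24, and those called Zc3h, 8 of 9, had −0.14, −0.03, −0.12 and −0.03. Those called Zdhhc, Zfyve, Zmym, Zcchc or Zfand, 28 to 30 of 36, had 0.06, 0.00, 0.05 and −0.14.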

How the data were processed

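Total RNA of 5 Fao samples, 1 per time, was measured on Agilent rat arrays of design 014879. The deposited intensity comes from Agilent Feature Extraction 9.5.3.1 and had a fitted background subtracted, per the file headers, so it can be negative. The deposited flags for signals well above background were used as set. The deposited series matrix holds log2 values, and the sources used here do not say how it was made. Its values matched the scaled log2 signals centred per probe (correlation 0.9993 to 0.9999 over probes), with column medians of 0.0.

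From the scanner files, control and outlier spots were left out, spots of a probe averaged, and signals divided by the 75th percentile over non-control spots. Dimmer signals were raised to the array's lowest one well above background before taking log2. A gene was its brightest probe, and its predicted suffix was dropped. A change needs both arrays well above background, and with 1 of 2 it is called a bound, though the true change can be smaller. The trend was fitted with limma 3.58.1 (R 4.3.3), with 3 residual degrees of freedom and 1 floor for all arrays, and called at an adjusted p of 0.05. On simulated slopes of 1 and 2 log2 units per hour in 16694 gene names, with 100 at each size, 90 and 100 were recovered and 16 of the others were called. That simulation drew normal noise for gene names on all 5 arrays only. The real fit of 20498 gene names also held raised dim signals, so the recovered shares do not carry over to it. Current names come from a RefSeq table of GRCr8, by accession for 49 members, by symbol for 60 and by an older symbol for 35, with 4 unmatched and 1 (Zfp334) in conflict. Tables were made in Python 3.11.15 with pandas 2.3.3 and numpy 2.4.6, and figures with matplotlib 3.10.9.

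The members, role lists and naming rule were chosen with earlier results of these data known. The rule named, at each time, the 4 largest increases and 4 largest decreases, every member 2-fold away, the 2 largest bounds in each direction at 60 min, and 31 fixed genes, 5 of which have no probe by that name here. It gave 46 genes. Zfp13, Zfp54, Zfp105, Zfp219 and others were named after their values were seen. Alternatives were normexp background (offset 50), quantile scaling, the percentile over probes on all arrays, the mean over probes, no filter on dim probes, genes on all 5 arrays, the series matrix and the 15 min array as reference. Refitting normexp without 5 spots over 100 units below their local background was added after seeing the data.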

Additional observations from a re-analysis of the deposited data

How the results depend on the processing

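The number of members 2-fold away depended on the treatment of dim signals, and each count was 4 or less except 1. With normexp background on all spots the counts were 13, 0, 0 and 1 at 15, 30, 45 and 60 min (0, 1, 2 and 2 as reported). The same counts over all gene names are not given for the alternatives, so these counts do not set the members apart. Over the 5 arrays together, 5 spots lay far below their local background. Without them the counts were 0, 0, 0 and 1, so that leaving them out changed the 15 min count alone. The offset of 50 in this model is as large as these signals, so folds of dim genes shrink by construction. Without a filter on dim probes 4 members were 2-fold away at 30 min. Against the 15 min array the count was 1 at 45 min and 1 at 60 min. Among genes on all 5 arrays and with the series matrix it was 1 at 60 min, since Zfp597 was then not included.

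Median changes of the members moved by less than the spread between members in every alternative. Their sign turned at 60 min, to −0.04 with either normexp setting and −0.12 without the filter on dim probes, where the medians of all gene names were −0.07 and −0.26. At 15 min the median was −0.00 with the percentile taken over probes on all arrays, and at 45 min −0.00 against the 15 min array. In every trend fit 0 members had a limma adjusted p under 0.05, while over all gene names the count was 4 among genes on all 5 arrays, 2 with the series matrix and 0 otherwise. At an unadjusted p under 0.05, limma gave 3 members with normexp on all spots, 12 with it refitted, and 13 to 18 otherwise. Apart from the main fit, the shares over all gene names are not given here. Of the values of single named genes under the alternatives, 222 were unchanged in call and size, 42 moved, 11 lost 2-fold and 1 gained it. Part of the 222 could not have differed, so that number does not measure robustness. Dropping the filter or keeping genes on all 5 arrays leaves a measured value as it was. The mean over probes does the same for a single-probe gene, and the series matrix holds nearly the same signal. Signal over background limits what can be said of members below a log2 level of about −2. No paired analysis was possible because each time has 1 array and the numbers pair nothing.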
